A study of Homo sapiens with 12 samples.

Results

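Ribosome biogenesis and nucleolar factors are the proteins that transcribe ribosomal RNA, cut and modify it, and fold it with ribosomal proteins into subunits. The 56 genes described here were taken by name from a list of such factors, out of 59653 gene symbols counted. No measured value entered that rule, but the list was drawn up with earlier results of these data known. All 56 were in the table and all 56 were among the 24671 genes that passed the filter on low counts. Total RNA was sequenced from human iPSC-derived neurons, which are made from induced pluripotent stem cells. The cell line is labelled IMR-90, so all 12 libraries share 1 line, and the sample titles also carry the letters NPC, which the labels do not explain. In 6 libraries the neurons had received a control siRNA with no intended target (siNC). In the 6 others they had received the ZCCHC17 siRNA (siZCC). No further allele or agent is named, and siRNA dose, time after siRNA and age of the cultures are not given in the sources used here. Nothing says that the libraries of a group came from separate cultures, so p-values measure the spread between these libraries, which may be technical.

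Ribosome production starts in the nucleolus, where RNA polymerase I copies ribosomal DNA into a long precursor. Small nucleolar ribonucleoproteins (snoRNPs) guide chemical marks onto it: those of the box C/D class add methyl groups to ribose, and those of the box H/ACA class turn uridine into pseudouridine. A large assembly called the small subunit processome then folds and cleaves the part that becomes the small subunit, while separate assembly factors build the large subunit. Dividing cells and growing neurons both draw on this pathway. ZCCHC17 encodes a zinc knuckle protein that is itself known from the nucleolus and from ribosomal fractions.

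The ZCCHC17 transcript ran from 53.99 to 61.0 counts-per-million (CPM, scaled between libraries) in siNC and from 9.37 to 10.6 CPM in siZCC, and its log2 fold change was -2.51 (SE 0.0402, adjusted p 3.52e-17 in edgeR's quasi-likelihood test, used for every comparison). The siNC libraries held 90755953 to 120023356 counts and the siZCC libraries 76115083 to 105389055. Every member other than NOP2 (171 to 375 counts) and PWP2 (23 to 50) had at least 631 counts in each library. Neuron markers were present, such as DCX at a mean of 649 CPM and MAP2 at 1027 CPM in siNC. TUBB3 stood at only 14.2 CPM there, and RBFOX3, a marker of mature neurons, at 1.27 CPM. Some genes of other cells were also abundant, among them SOX2 of neural progenitors at 621 CPM, GFAP of astrocytes at 616 CPM and MKI67 of dividing cells at 205 CPM in siNC. Other markers of the same kinds were low in siNC, such as HES5 of progenitors at 6.09 CPM and ALDH1L1 of astrocytes at 2.21 CPM.

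Short promoter stretches are shown first, for the 4 members that passed the test and hold one of 4 searched motifs outside every annotated exon. All come from the RefSeq promoter table (GRCh38.p14), which held 49 of the 56 members. Capitals mark the motif, and each stretch is written 5′ to 3′ on the gene's own strand. UTP14A lies on the plus strand (chrX:129905914-129906013) and its capitals are an E-box, the letters bound by MYC and related factors. RRP9 (chr3:51942055-51942154, minus strand) and FBL (chr19:39846520-39846619, minus strand) hold a core of the ETS family of factors. NOB1 (chr16:69755013-69755112, minus strand) holds the palindrome bound by NRF1.
UTP14A: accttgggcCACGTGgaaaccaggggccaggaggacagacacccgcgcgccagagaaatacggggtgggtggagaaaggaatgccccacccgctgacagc
RRP9: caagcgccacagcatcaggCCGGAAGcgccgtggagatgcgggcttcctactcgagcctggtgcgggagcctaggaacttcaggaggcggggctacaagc
FBL: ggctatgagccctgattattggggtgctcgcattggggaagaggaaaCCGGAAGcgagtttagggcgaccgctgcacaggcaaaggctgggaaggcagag
NOB1: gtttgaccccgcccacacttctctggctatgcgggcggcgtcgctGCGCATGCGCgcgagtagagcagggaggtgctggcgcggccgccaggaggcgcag

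In the 250 bases before the start, searched on both strands, the ETS core CCGGAAG was in 21 of 49 member promoters, or 42.9%, against 13.6% of the promoters of all genes kept and 8.82% of all 27305 promoters. The E-box CACGTG was in 8 of 49 (16.3%), against 8.31% and 6.49%. The NRF1 palindrome, with the letters capitalised for NOB1, was in 5 of 49 (10.2%), against 1.74% and 1.13%, and the 10-letter palindrome bound by BANP was in 1 of 49 (2.04%), against 0.697% and 0.41%. None of these motifs contains another, and the median GC content was 64.8% in member promoters and 64.4% in those of all genes kept. By response, the E-box was in 3 of 6 members that fell, 1 of 5 that rose and 4 of 38 that passed in neither direction, while the ETS core was in 1 of 6, 2 of 5 and 18 of 38. In the same order, the NRF1 palindrome was in 0 of 6, 2 of 5 and 3 of 38, and the BANP palindrome in 0, 0 and 1. A match describes the letters and not a binding site, and NOP58, RRP12, RRP1B, NOLC1, DDX18, BOP1 and RRS1 had no entry in the table.

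Between siZCC and siNC the nucleolar genes as a set stayed close to their control levels, with small changes in both directions. Of the 56 members, 13 passed an adjusted p of 0.05, with 6 higher and 7 lower in siZCC. That is 23.2% of the members, against 22.2% of all genes kept, of which 11.4% were higher and 10.8% lower. Expressed genes pass more often: where the mean CPM was 10 or more, 31.9% of all genes passed (17.3% higher and 14.6% lower), beside 13 of 52 members. In this fit the members' share lay near the background or below it. Their median log2 fold change was -0.013, beside -0.0016 over all genes kept, with 24 members above 0 and 32 below. Among all genes kept, 12249 were above 0 and 12422 below.

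The changes that passed were small. The largest estimate among the 56 was a change of 1.17-fold, the median size among the 13 called members was 1.09-fold, and 0 of 56 members were estimated to differ by more than 1.2-fold, against 6.28% of genes at a mean CPM of 10 or more and 19.9% of all genes kept. The 95% interval of the fold change lay wholly within 1.2-fold in either direction for 53 members. It reached beyond for UTP14A, NOP2 and PWP2. The groups did not overlap in 7 members, or 12.5%, against 9.74% of all genes kept and 15.1% of those at 10 CPM or more. The split between higher and lower depended on scaling: upper quartile scaling gave 5 higher and 11 lower (28.6% of members, against 22.0% of all genes), and correcting for GC and length gave 12 higher and 7 lower (33.9%, against 25.6%). In both of those fits the members' share was above that of all genes. Expressed genes pass more often, and 52 of the 56 members were at 10 CPM or more. The share of all genes at that level was not computed in those fits, so no excess of the members can be read from them. No member among the 13 changed direction in either fit. Without siNC replicate 4, the siNC library with the lowest total, 8 members passed, 4 higher and 4 lower (14.3%, against 18.7% of all genes). The libraries also differ in IL1B, an inflammatory cytokine gene that is above 100 counts in 3 of each group. Within those 6 libraries UTP14A, RRP12 and NOP58 passed (5.36% of members, against 8.2% of all genes). Within the other 6, UTP14A, RRP12 and UBTF passed (5.36%, against 6.45%), and all 13 members kept their direction in both.

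**Figure D1:**
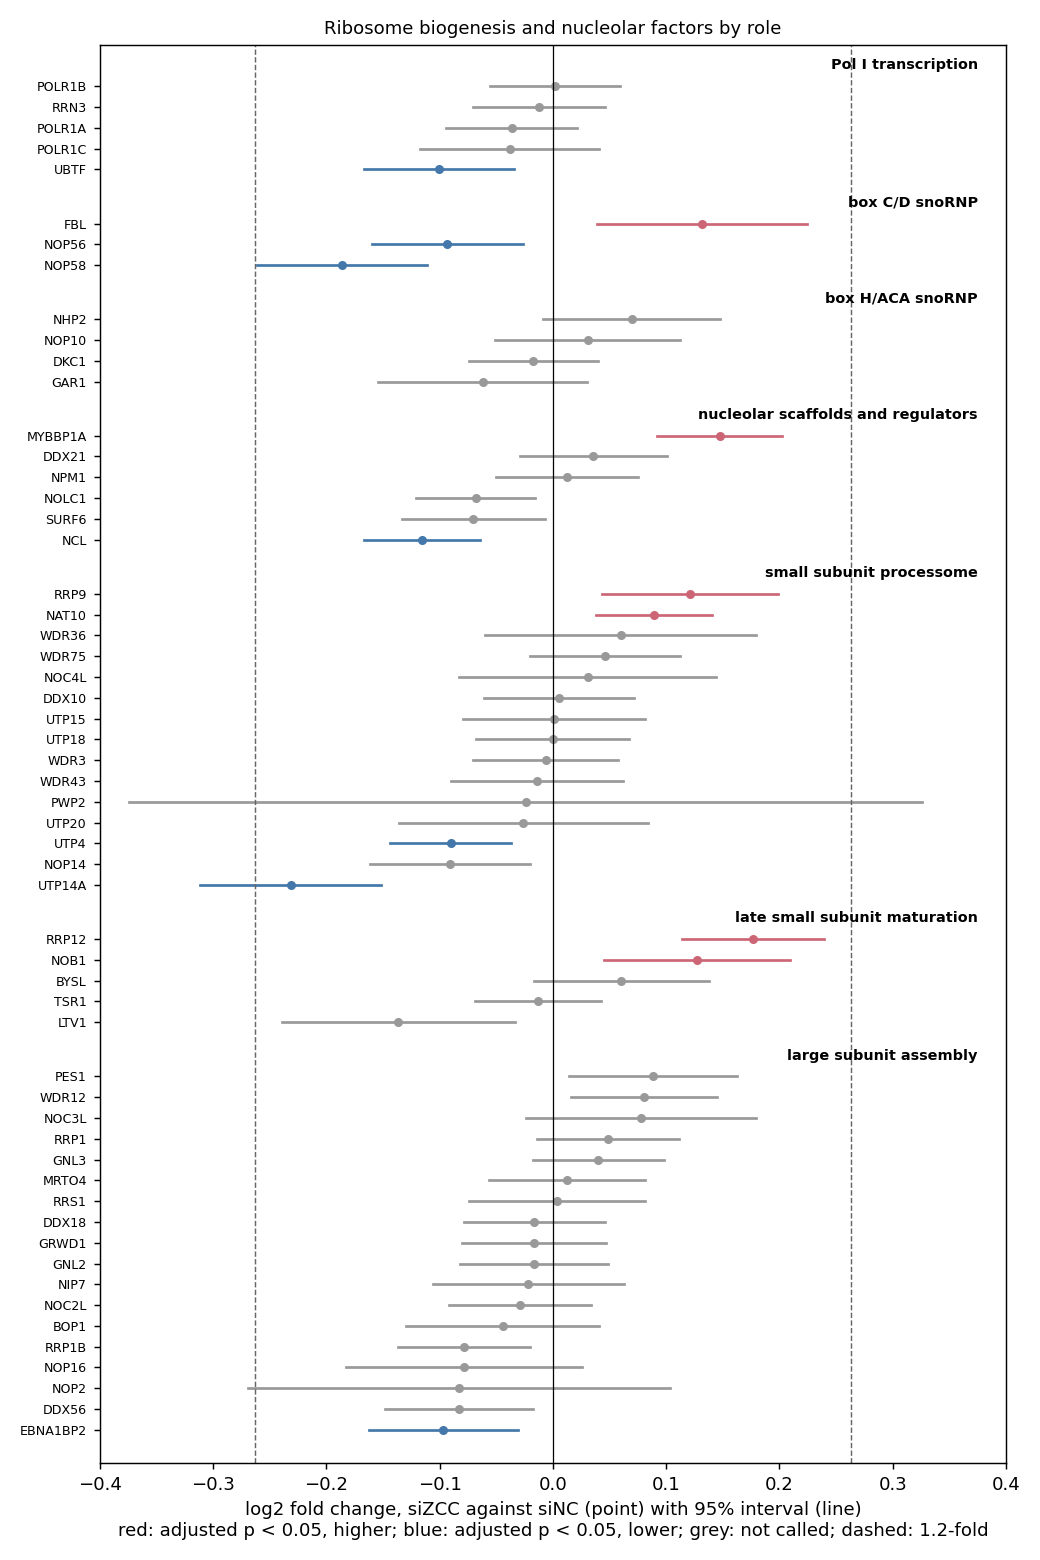
Log2 fold change of each of the 56 members (siZCC against siNC, horizontal axis) with its 95% interval, grouped by role; colours mark the 6 higher and 7 lower members that passed an adjusted p of 0.05, and dashed lines mark 1.2-fold. All point estimates lie between the dashed lines, and the widest interval is that of PWP2.

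RNA polymerase I transcription is represented by POLR1A and POLR1B, the large catalytic subunits, POLR1C, a subunit shared with RNA polymerase III, RRN3, which brings the polymerase to the promoter, and UBTF, which coats active ribosomal genes. UBTF was the 1 member of the 5 that passed (20%, against 22.2% of all genes kept). It ran from 138 to 145 CPM in siNC (median 145) and from 126 to 144 CPM in siZCC (median 134). Its 2 groups overlapped, since siZCC replicate 5, at 143.6 CPM, stood above siNC replicate 1 (138.3 CPM) and siNC replicate 2 (142.7 CPM). The log2 fold change of UBTF was -0.10 (SE 0.0313, adjusted p 0.0288), and leaving out siNC 4, siNC 6, siZCC 2 or siZCC 3 ended the call (adjusted p 0.0502 to 0.0599). The 4 others had 95% intervals that included 0. POLR1B, at 36.7 to 39.0 CPM in siNC and 36.9 to 39.4 CPM in siZCC, had a log2 fold change of 0.0019 with an interval of -0.055 to 0.059. The estimates of POLR1A, POLR1C and RRN3 were -0.04, -0.04 and -0.013. In the longest RRN3 transcript, 26.9% of the 50-base words also occur in transcripts of other genes. POLR1C, at a mean of 2381 counts, overlaps exons of XPO5 (10441) and YIPF3 (12207) on the opposite strand. The counts of RRN3 and POLR1C are therefore uncertain.

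Box C/D snoRNPs are built on FBL, the methyltransferase, and on NOP56 and NOP58, a pair of related scaffold proteins. This was the 1 role group in which all members passed, 3 of 3. Of all genes kept 22.2% passed, and of those at 10 CPM or more 31.9%. The 3 members did not move in 1 direction. NOP58 (chromosome 2, 202265716 to 202303666, plus strand, GENCODE v29 on GRCh38) ran from 44.95 to 45.9 CPM in siNC (median 45.3) and from 37.4 to 44.5 CPM in siZCC (median 39.5). Every siZCC library lay below every control, though siZCC replicate 2, at 44.5 CPM, came close to them. NOP58 fell by 0.19 on the log2 scale (SE 0.0356, adjusted p 0.00131), to 87.9% of the control level, and without siZCC replicate 2 it fell by 0.22. NOP56 ran from 107 to 123 CPM in siNC (median 115) and from 106 to 111 CPM in siZCC (median 107), so its groups overlapped. Its log2 fold change was -0.09 (SE 0.0315, adjusted p 0.0426).

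FBL, the enzyme of the same particle, was higher. It ran from 55.9 to 62.4 CPM in siNC (median 59.4) and from 57.8 to 70.0 CPM in siZCC (median 65.3), again with overlap, and its log2 fold change was 0.13 (SE 0.0439, adjusted p 0.0397). The calls of NOP56 and FBL were close to the threshold. For NOP56, leaving out any single library other than siNC 5, siNC 6 or siZCC 5 ended the call (adjusted p 0.0521 to 0.0877), as did using no filter (0.0517) and the GC and length correction (0.0617). For FBL, leaving out siNC 1, 4, 5 or 6, or siZCC 4, 5 or 6, ended it (adjusted p 0.0529 to 0.0919), as did upper quartile scaling (0.0588). NOP58 kept its call in each of the 12 fits that left out 1 library. The summed level of the 3 genes ran from 209 to 229 CPM in siNC and from 208 to 221 CPM in siZCC.

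Box H/ACA snoRNPs carry DKC1, the pseudouridine synthase, with the smaller proteins GAR1, NHP2 and NOP10. None of the 4 passed, and 0 of the 4 reached an unadjusted p under 0.05, beside 8487 of the 24671 genes kept. DKC1 ran from 40.3 to 43.2 CPM in siNC and from 40.2 to 42.4 CPM in siZCC, with a log2 fold change of -0.017 and a 95% interval of -0.07 to 0.04. The smallest p belonged to NHP2, at 60.7 to 69.5 CPM in siNC and 63.7 to 70.1 CPM in siZCC (log2 fold change 0.07, SE 0.0370, adjusted p 0.198). In the longest NHP2 transcript, 52.2% of the 50-base words also occur in transcripts of other genes, so its count is uncertain. GAR1 had an interval of -0.15 to 0.03 and NOP10 of -0.05 to 0.11. All 4 intervals lay within 1.2-fold.

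**Figure D2:**
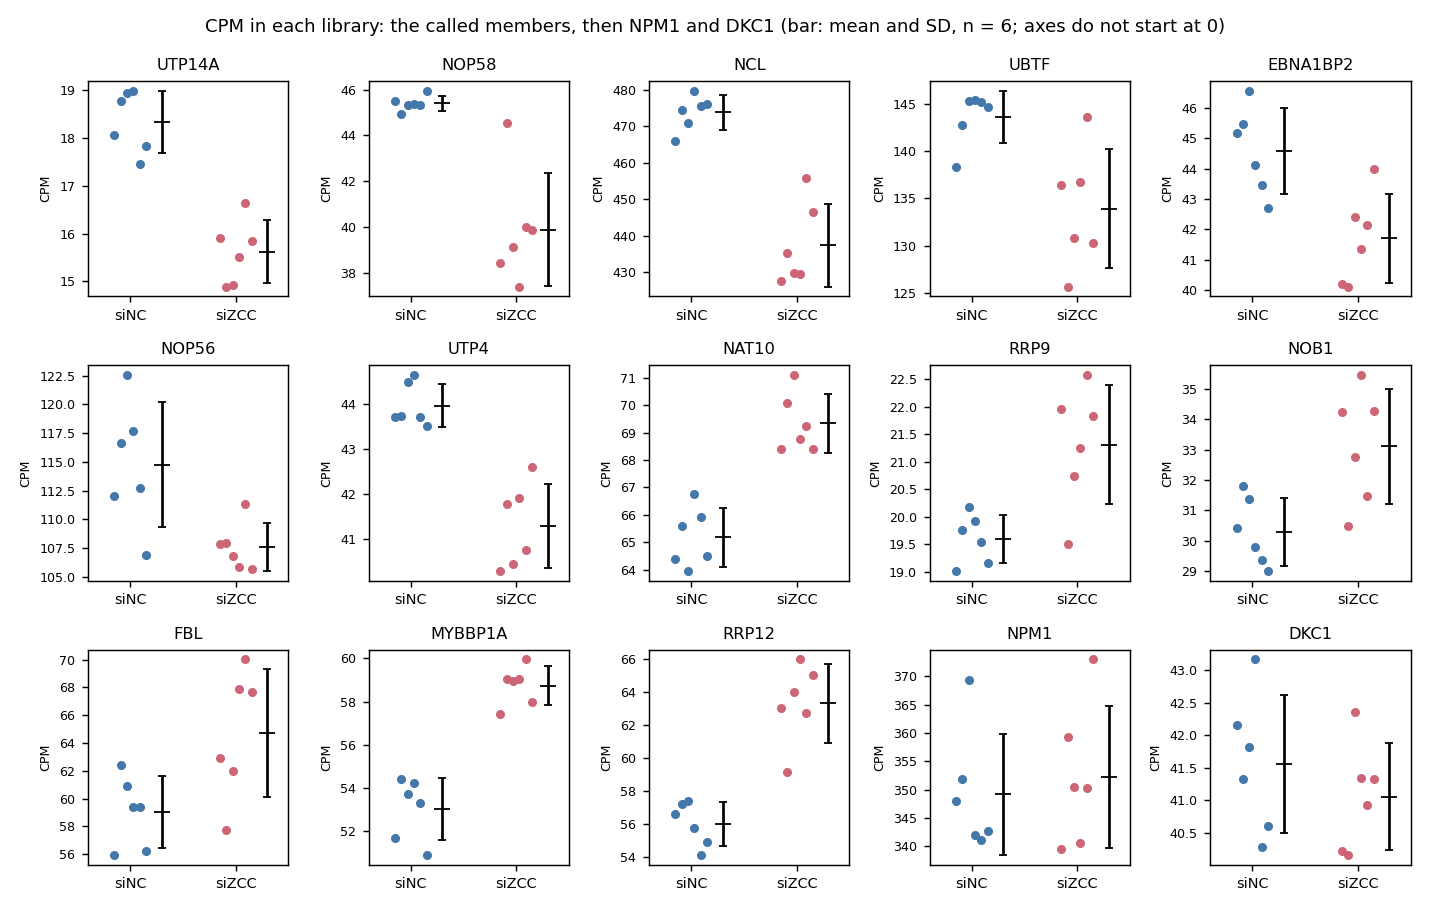
CPM in each library (1 point each; blue siNC, red siZCC; bar, mean and SD, n = 6) of the 13 members that passed, and of NPM1 and DKC1, which did not; the vertical axes do not start at 0. The groups separate fully in UTP14A, NOP58, NCL, UTP4, NAT10, MYBBP1A and RRP12 and overlap in the others.

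Of the 6 nucleolar scaffolds and regulators, NCL fell and MYBBP1A rose. That is 33.3%, against 22.2% of all genes kept and 31.9% of those at 10 CPM or more. NCL encodes nucleolin, one of the most abundant nucleolar proteins, which binds the ribosomal RNA precursor. It had the highest CPM of all members, from 466 to 479.8 CPM in siNC (median 475) and from 428 to 456 CPM in siZCC (median 432), without overlap. NCL fell by 0.12 on the log2 scale (SE 0.0242, adjusted p 0.00253), to 92.3% of the control level. MYBBP1A encodes a nucleolar protein that links ribosomal RNA synthesis to p53. It ran from 50.9 to 54.4 CPM in siNC (median 53.5) and from 57.4 to 59.95 CPM in siZCC (median 59.0), also without overlap, and rose by 0.15 (SE 0.0262, adjusted p 0.000773). Both calls were kept in all 12 fits that left out 1 library.

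NPM1, the nucleolar histone chaperone that forms the outer granular layer of the nucleolus, ran from 341 to 369 CPM in siNC and from 339.5 to 373 CPM in siZCC. Its groups overlapped, and its log2 fold change was 0.012 (SE 0.0296, adjusted p 0.811) with a 95% interval of -0.05 to 0.07. NPM1 has many processed copies in the genome, and 44.4% of the 50-base words of its longest transcript also occur in transcripts of other genes, so its count is uncertain. NOLC1, a snoRNP chaperone, DDX21, an RNA helicase, and SURF6, a structural nucleolar protein, had log2 fold changes of -0.07 (adjusted p 0.0569), 0.04 (0.450) and -0.07 (0.104). Per kilobase of exon, NPM1 had the highest level of the members in siNC (91.2 CPM per kb), followed by NOP10 (69.1) and NCL (68.4). The lowest were PWP2 (0.0563) and NOP2 (0.612), followed by DDX10.

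The 15 members of the small subunit processome held 2 that fell and 2 that rose. That is 26.7%, against 22.2% of all genes kept and 31.9% of those at 10 CPM or more. UTP14A (chromosome X, 129906121 to 129929761, plus strand) showed the largest change of all 56. It ran from 17.4 to 18.98 CPM in siNC (median 18.4) and from 14.9 to 16.6 CPM in siZCC (median 15.7), and every siZCC library lay below every control. UTP14A fell by 0.23 (SE 0.0378, adjusted p 0.000374), to 85.2% of the control level. Of its 50-base words, 11.9% recur in transcripts of ALG11, which had a log2 fold change of 0.03 (adjusted p 0.827) with an interval of -0.13 to 0.19.

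UTP4, a WD-repeat protein of the complex that binds the precursor early, ran from 43.5 to 44.7 CPM in siNC and from 40.3 to 42.6 CPM in siZCC. The groups did not overlap, and UTP4 fell by 0.09 (SE 0.0252, adjusted p 0.0163). NAT10, the acetyltransferase that marks cytidines of small subunit RNA, ran from 63.96 to 66.8 CPM in siNC and from 68.4 to 71.1 CPM in siZCC, again without overlap, and rose by 0.09 (SE 0.0242, adjusted p 0.0137). RRP9, a protein of the U3 snoRNP that guides the early cleavages, rose by 0.12 (SE 0.0367, adjusted p 0.0256). Its range was 19.0 to 20.2 CPM in siNC and 19.5 to 22.6 CPM in siZCC, where 1 siZCC library lay within the control range. Leaving out siNC 1, siNC 6, siZCC 1, siZCC 5 or siZCC 6 ended the call of RRP9 (adjusted p 0.0554 to 0.0638). Using no filter on low counts ended those of RRP9 and NAT10 (adjusted p 0.0676 and 0.0823).

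The remaining processome genes did not pass. NOP14, WDR3, WDR36, WDR43, WDR75, UTP15, UTP18, UTP20, NOC4L and DDX10 had log2 fold changes from -0.09 (NOP14) to 0.06 (WDR36), with all intervals within 1.2-fold. UTP18 was the closest to 0, at 28.5 to 29.7 CPM in siNC and 27.3 to 30.5 CPM in siZCC. PWP2 could not be measured well. Its row held 23 to 50 counts per library (0.28 to 0.53 CPM), and its interval ran from -0.37 to 0.33. A copy annotated as FP565260.1 shares 93.4% of the 50-base words of PWP2 and held 780 to 1226 counts per library, on average 26.0 times the CPM of PWP2. FP565260.1 had a log2 fold change of -0.04 (SE 0.0487, adjusted p 0.581) with an interval of -0.15 to 0.06.

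In late small subunit maturation, where the nearly finished subunit leaves the nucleus and its RNA end is trimmed, 2 of 5 members rose and 0 fell. Among all genes kept, 11.4% passed as higher and 10.8% as lower, and at 10 CPM or more 17.3% and 14.6%. RRP12, a HEAT-repeat protein needed for export of pre-ribosomes, rose by 0.18 (SE 0.0299, adjusted p 0.000502), the largest rise of the members. It ran from 54.1 to 57.4 CPM in siNC (median 56.2) and from 59.1 to 65.98 CPM in siZCC (median 63.5), with no overlap. NOB1, the endonuclease that makes the final cut of small subunit RNA, rose by 0.13 (SE 0.0388, adjusted p 0.0260), from 29.02 to 31.8 CPM in siNC to between 30.5 and 35.4 CPM in siZCC, with overlap. Its call ended on leaving out siNC 4, siNC 6, siZCC 1, siZCC 4 or siZCC 6 (adjusted p 0.0518 to 0.0641), and 30.1% of its 50-base words recur in other genes. LTV1, which helps shape the head of the small subunit, was lower in estimate but did not pass (-0.14, SE 0.0486, adjusted p 0.0534). BYSL and TSR1 had estimates of 0.06 and -0.013.

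Large subunit assembly was the largest role group, and 1 of its 18 members passed (5.56%, against 22.2% of all genes kept). EBNA1BP2, which acts early in large subunit assembly, ran from 42.7 to 46.6 CPM in siNC and from 40.1 to 43.995 CPM in siZCC. The groups overlapped, and EBNA1BP2 fell by 0.10 (SE 0.0311, adjusted p 0.0336). The call ended on leaving out siNC 1, 2, 3 or 4, or siZCC 1, 2 or 4 (adjusted p 0.0502 to 0.0713), with no filter (0.0539) and with the GC and length correction (0.0781). The complex of PES1, BOP1 and WDR12, which couples assembly to cell growth, did not pass in any of its 3 subunits (0.09, adjusted p 0.0833; -0.04, adjusted p 0.478; 0.08, adjusted p 0.0693).

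Other large subunit factors moved by no more than 0.09 in estimate. RRP1B (-0.08, SE 0.0277, adjusted p 0.0519) stood just outside the threshold and its relative RRP1 had an estimate of 0.05 (adjusted p 0.265). GNL3, the nucleolar GTPase also called nucleostemin, ran from 49.0 to 52.1 CPM in siNC and from 50.1 to 53.9 CPM in siZCC, with a log2 fold change of 0.04 and an interval of -0.018 to 0.098. NOP2, an RNA methyltransferase, was counted at only 2.28 to 3.30 CPM over the 12 libraries, and 83.3% of its words recur in the overlapping gene AC006064.6, which held at most 5 counts in any library, so its count is uncertain. In all, 14 members share over 10% of their 50-base words with other genes, and 19 overlap an exon of a gene on the opposite strand, whose reads cannot be told apart here because the strand setting of the counting is not given.

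The members also host snoRNA genes: 24 lie inside 7 members, 11 of them overlapping an annotated exon of the host by 20 bases or more. Of the 24, 21 were in the table and 4 passed the filter. Those 4 had at most 41 counts in any library. In GNL3, SNORD19 had a log2 fold change of -0.39 (SE 0.172, adjusted p 0.121) and SNORD69 of -0.44 (SE 0.186, adjusted p 0.102). In NCL, SNORA75 had 0.15 (SE 0.231) and SNORD20 had 0.22 (SE 0.324). None of the 4 passed, and 2 of 4 reached an unadjusted p under 0.05, beside 8487 of the 24671 genes kept.

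Other genes of the pathway were counted on 4 further lists. Of 112 further ribosome biogenesis genes, 22 passed (19.6%, against 22.2% of all genes kept), with 8 higher and 14 lower. Their median log2 fold change was -0.0071, and 0 were past 1.2-fold. The split turned with the GC and length correction, to 15 higher and 11 lower. Among other small subunit factors (2 higher and 6 lower of 41), IMP4 rose by 0.17 (SE 0.0319, adjusted p 0.00109) and RRP8 by 0.13 (SE 0.0316), while NOL11 fell by 0.15 (SE 0.0285, adjusted p 0.00112) and DDX52 by 0.17 (SE 0.0335). Among other large subunit factors (5 higher and 4 lower of 44), MDN1, the giant remodelling ATPase, rose by 0.23 (SE 0.0523, adjusted p 0.00459) and NOP53 by 0.14 (SE 0.0370), and NOL9 fell by 0.17 (SE 0.0303, adjusted p 0.000633) and BCCIP by 0.10 (SE 0.0264). Of 11 other polymerase I factors, only TTF1, which ends ribosomal RNA transcription, passed, and it fell by 0.14 (SE 0.0320). Of 16 exosome and nuclease genes, 1 was higher and 3 were lower. Their median log2 fold change was -0.057. Among all genes kept 12249 estimates were above 0 and 12422 below, and among these 16 genes 3 were above and 13 below. Among those that passed, XRN2 fell by 0.19 (SE 0.0249, adjusted p 4.77e-05), EXOSC2 fell by 0.09 and EXOSC7 rose by 0.13. Leaving out siNC 1, siNC 3, siZCC 1, siZCC 3 or siZCC 4 ended the call of EXOSC2 (adjusted p 0.0526 to 0.0597), as did no filter (0.0676) and the GC and length correction (0.0877). Leaving out siNC 4, siNC 6, siZCC 3 or siZCC 6 ended that of EXOSC7 (0.0541 to 0.0641), as did no filter (0.0502).

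**Figure D3:**
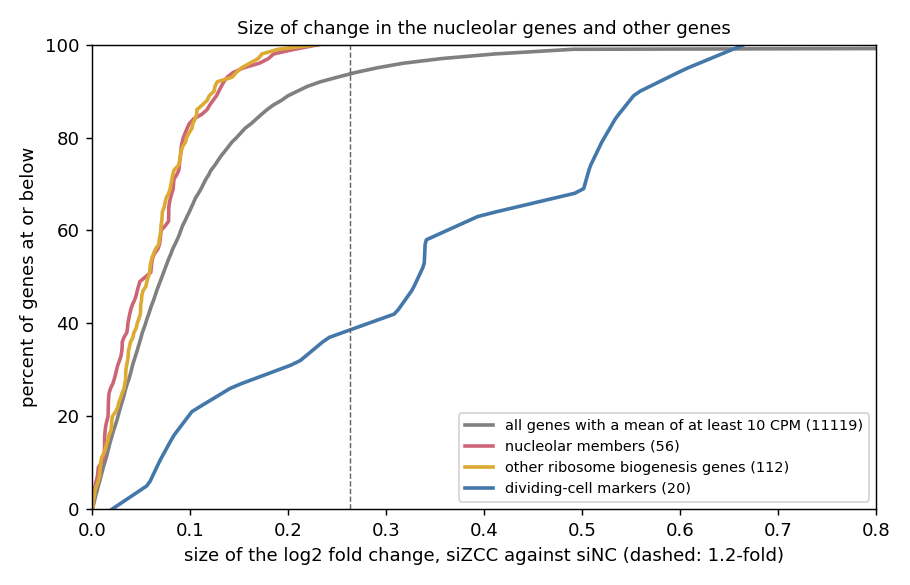
Percent of genes (vertical axis) whose log2 fold change is at or below a given size (horizontal axis), for the 56 members, 112 other ribosome biogenesis genes, 20 dividing-cell markers and all genes at a mean CPM of 10 or more. The curves of the members and of the wider pathway reach 100 percent before the dashed line at 1.2-fold, which 6.28% of the genes at 10 CPM or more lie beyond.

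MYC and MYCN encode transcription factors known to drive nucleolar genes. Of the 9 genes listed for the MYC family and its partners, 3 rose and 2 fell, beside 11.4% and 10.8% of all genes kept. The largest estimate was that of MXI1, a MYC antagonist, which rose by 0.26 (SE 0.0301, adjusted p 1.94e-05), and 2 other antagonists, MNT and MXD4, rose by 0.11 and fell by 0.19; these 3 were named after their values were seen. MYC ran from 15.2 to 16.1 CPM in siNC and from 12.8 to 14.5 CPM in siZCC, without overlap, and fell by 0.18 (SE 0.0377, adjusted p 0.00222). MYCN, at 34.9 to 43.0 CPM in siNC and 40.3 to 46.4 CPM in siZCC, rose by 0.16 (SE 0.0464, adjusted p 0.0180). Their part in the members' values was not tested.

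Markers of other cell states were counted in the same libraries. In bulk RNA, fewer cells of a type and less RNA per cell cannot be told apart. Among all genes kept, 11.4% were higher and 10.8% lower. Of 20 dividing-cell markers, 15 were lower and 0 higher, with a median log2 fold change of -0.33. Their summed level ran from 1277 to 1410 CPM in siNC and from 1028 to 1195 CPM in siZCC. On that list MCM2, MCM3, MCM5, RRM2 and TYMS did not pass, with estimates from -0.14 (RRM2) to 0.06 (MCM2). Of 10 astrocyte markers 5 were higher and 1 lower (summed level 2771 to 2953 CPM in siNC, 2953 to 3324 CPM in siZCC), of 12 neuron markers 1 was higher and 6 lower (3306 to 3717 and 3007 to 3397 CPM), and of 10 progenitor markers 3 were higher and 1 lower (5895 to 6273 and 5946 to 6473 CPM). No marker on these lists was at 0. The 56 members summed to between 3355 and 3424 CPM in siNC and between 3304 and 3386 CPM in siZCC, ranges that overlap, and their mean log2 CPM per library ran from 5.25 to 5.29 in siNC and from 5.24 to 5.29 in siZCC. The part of cell composition in the members' values was not tested.

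**Figure D4:**
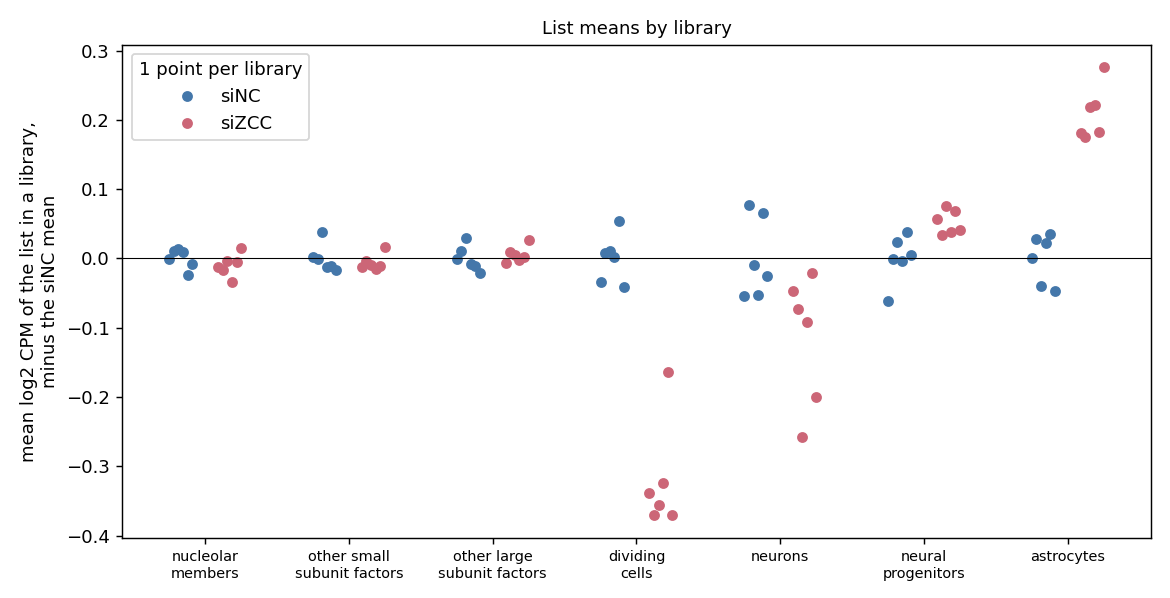
Mean log2 CPM of each gene list in each library, minus the siNC mean (vertical axis; 1 point per library, blue siNC, red siZCC). The points of the nucleolar members overlap between groups, while the 6 siZCC points of the dividing-cell list lie below all 6 siNC points.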

How the data were processed

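The members, role groups and gene lists were chosen with earlier results of these data known. The authors deposited whole-number counts per gene symbol, 1 column per library; the submitters' processing notes name bcl2fastq 2.17, STAR 2.7.6a, featureCounts 2.0.1 and GRCh38, and lysis in Qiazol and a directional library kit are given per the labels' protocols. The annotation and strand setting are not given in the sources used here.

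The unchanged counts entered edgeR 4.0.16 (R 4.3.3). Genes were kept by filterByExpr, libraries scaled by TMM, and groups compared by the quasi-likelihood test over 24671 genes, with Benjamini-Hochberg adjusted p-values and a threshold of 0.05. The script was tested on simulated counts. The SE is the size of the log2 fold change divided by the square root of F. List means use log2 CPM with a prior count of 2. Of the symbols, 92.2% were in GENCODE v29, used for positions, exon lengths and shared sequence.

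Named were ZCCHC17, every member that passed, the smallest p of each role group, the 3 members with the highest CPM, members without overlap, and up to 2 genes per direction and list of the wider pathway, with MYC and MYCN; other members named were added for their role. MPP6 was dropped from the exosome list because its symbol also names an unrelated gene. Alternatives were DESeq2 1.42.0 (size factors and Wald test), upper quartile scaling, other filters, limma 3.58.1 voom, the replicate number as a block, a correction for GC content and length, and leaving out each library. A split of the libraries by IL1B counts was added after seeing the data.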

Additional observations from a re-analysis of the deposited data

Results flagged for a closer look

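In 38 groups of 6 libraries (19 quantities in each group), 1 library lay unusually far from its neighbour in 2, where chance flags about 1 in 20, or 1.9. Library total: siNC replicate 4 was lowest with 90755953 counts, while the other 5 controls held 109973707 to 120023356. For UBTF, siNC replicate 1 was the lowest control at 7.11 in log2 CPM, against 7.16 to 7.18 in the others; the UBTF call was kept when it was left out.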

How the results depend on the processing

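With other scalings, filters, tests and the IL1B block, the count of 13 members stayed between 9 (no filter) and 19 (GC and length correction). Those counts were 16.1% and 33.9% of members, against 9.92% and 25.6% of all genes in the same fits. Without a filter, all genes numbered 48221, many of them too low to pass it, whereas every member passed the filter. No excess of the members can be read from that fit. With a mean count of at least 50 required, 32.7% of members passed, against 30.2% of all genes. No member among the 13 changed direction in any fit. Libraries of the same replicate number did not deviate together (r -0.077 to 0.018); with the number as a block 6 members passed (10.7%, against 19.9% of all genes). Leaving out each library gave 8 to 14 members (7 of the 13 kept their call in all 12 fits), 15 to 31 of the other pathway genes, medians from -0.020 to -0.00045, and -2.53 to -2.49 for ZCCHC17. In the libraries with over 100 IL1B counts alone, 3 against 3, 3 members and 7 other pathway genes passed (8.2% of all genes) and NPM1 turned to -0.049; in the rest 3 and 2 passed (6.45% of all genes), and the members' median was 0.016. Fewer libraries entered these fits. For NPM1, leaving out each library gave -0.0089 (without siZCC replicate 6) to 0.029. Counts were lowest, and intervals widest, for PWP2 and NOP2 among the members.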
